A study of Mus musculus with 20 samples.

Results

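A set of 1408 chromatin regions was open in cardiomyocyte cultures of both genotypes and in no culture of embryonic stem cells. These regions were found by ATAC-seq, in which a transposase cuts into accessible DNA and the pile of cuts is called as a peak. Called intervals of all 12 libraries were merged where they shared at least 1 bp, which gave 193427 union regions of the mouse genome (build mm10). A region belonged to the set when it was called in 3 of 3 wild-type and 3 of 3 knockout cardiomyocyte libraries and in 0 of 6 stem-cell libraries. The set made up 0.728% of all union regions. The regions were thus chosen by the ATAC-seq calls of these 12 libraries, whose calls, ranks and enrichments are given below as a description.

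The 4 groups were mouse embryonic stem cells (ESC) and cardiomyocyte cultures derived from them (CM), both as wild type (WT) and as Mettl3 knockout (KO), all of strain C57BL/6. Mettl3 encodes the catalytic subunit of the enzyme that writes m6A, a methyl mark on adenosines of RNA. The stem cells were made into embryoid bodies, cell aggregates that differentiate in serum medium with ascorbic acid, and were then plated on gelatin, so a CM culture can hold several cell types. ATAC-seq had 3 libraries per group, and chromatin-associated RNA (ChrRNA-seq) and its m6A (Chrm6A-seq) had 1 library per group. Whether the libraries of a group were separate cultures, and whether the knockout is 1 clone, is not stated, so p-values cover the spread of these libraries alone, which may be technical. In bulk cultures, fewer cells with an open region and a less open region in each cell cannot be told apart. CM KO replicate 3 is labelled as RNA but holds a peak list like the others, and it was taken as ATAC-seq. The chromatin RNA of Mettl3 was 1.73 and 1.28 RPKM (reads scaled to gene length and library size) in WT and KO stem cells, and 1.18 and 1.07 in WT and KO CM cultures. Which exons were removed is not stated in the labels, so this level checks no label.

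The CM label was set against marker genes in the ChrRNA-seq. Of 21 sarcomere genes, 19 were lower in CM KO than in CM WT. Tnnt2, cardiac troponin T, was listed at 0 in both ESC libraries and reached 0.742 RPKM in CM WT and 0.103 in CM KO. For scale, the median over all genes was 0.404 RPKM in CM WT and 0.409 in CM KO. Myh6, the atrial myosin heavy chain, stood at 1.27 RPKM in CM WT and 0.0322 in CM KO. Summed over 21 sarcomere genes, the level was 4.11 and 4.05 RPKM in ESC (WT, KO) and 18.4 and 8.60 RPKM in CM (WT, KO). All 21 were higher in CM WT than in ESC WT, but only 15 were higher in CM KO than in ESC KO. Titin (Ttn) was higher in CM for WT, at 0.641 RPKM in ESC WT and 2.18 in CM WT. In KO it was lower in CM, at 0.491 RPKM in ESC KO and 0.140 in CM KO. Summed over 31 pluripotency genes, it was 175 and 160 RPKM in the ESC libraries and 41.2 and 51.7 in CM WT and CM KO. Markers of other cells were present: 16 blood genes summed to 0.305 and 0.275 RPKM in ESC (WT, KO) and 44.5 and 49.2 in CM (WT, KO), and 22 endoderm genes to 3.23 and 2.39 against 33.3 and 15.5. The sum over 22 fibroblast and matrix genes was 8.52 and 9.11 RPKM in ESC and 57.5 and 33.5 in CM. The cultures are therefore called CM as labelled, and the part of other cell types in the results below was not tested.

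Open chromatin in a differentiating cell marks promoters and, more often, distant enhancers, where transcription factors displace nucleosomes. In heart and mesoderm development, enhancers are bound by GATA, TEAD, MEIS, HAND, NKX2-5 and MEF2 factors, and by AP-1 in many cell types that spread and adhere. Regions that open on differentiation usually lie far from gene starts, while regions open in every cell type are rich in promoters with many CpG dinucleotides.

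The promoters that lay in the set can be read directly. RefSeq promoter windows (GRCm38.p6, the assembly behind mm10) run from 250 bases before to 50 bases after a gene start. Such windows were overlapped by 38 regions of the set, which met 43 windows of 40 gene symbols. The 250 bases before the start are shown for the listed gene Acta2 and for the 4 other genes with the highest-ranked regions, each with its 300-base window fully inside a region. Capitals mark exact matches to the motifs named below, on either strand, and each sequence reads towards the gene start.
Acta2: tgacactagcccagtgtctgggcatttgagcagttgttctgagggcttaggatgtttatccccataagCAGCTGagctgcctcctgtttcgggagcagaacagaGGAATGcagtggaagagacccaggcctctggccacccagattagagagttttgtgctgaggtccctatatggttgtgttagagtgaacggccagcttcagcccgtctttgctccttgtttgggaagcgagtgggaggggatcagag
Mylk3: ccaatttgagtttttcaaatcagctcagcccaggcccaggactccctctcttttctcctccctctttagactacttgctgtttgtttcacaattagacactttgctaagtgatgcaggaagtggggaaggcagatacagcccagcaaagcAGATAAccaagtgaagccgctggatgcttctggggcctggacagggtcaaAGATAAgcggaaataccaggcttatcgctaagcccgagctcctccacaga
Ctla2b: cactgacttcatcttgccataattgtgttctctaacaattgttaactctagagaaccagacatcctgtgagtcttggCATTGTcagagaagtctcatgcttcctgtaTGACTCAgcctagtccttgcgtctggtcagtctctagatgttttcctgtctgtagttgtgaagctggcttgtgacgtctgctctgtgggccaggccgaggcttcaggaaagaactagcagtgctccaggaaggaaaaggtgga
2700070H01Rik: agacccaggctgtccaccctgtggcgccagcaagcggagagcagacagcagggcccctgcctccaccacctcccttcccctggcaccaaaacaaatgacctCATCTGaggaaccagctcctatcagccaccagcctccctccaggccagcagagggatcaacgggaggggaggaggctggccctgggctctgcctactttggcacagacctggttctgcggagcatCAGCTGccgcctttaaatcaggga
Gm32440: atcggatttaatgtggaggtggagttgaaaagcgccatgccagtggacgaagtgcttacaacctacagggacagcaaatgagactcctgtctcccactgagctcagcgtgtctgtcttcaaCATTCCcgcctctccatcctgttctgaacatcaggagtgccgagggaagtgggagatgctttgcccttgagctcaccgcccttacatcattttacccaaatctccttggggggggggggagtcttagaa
Acta2, smooth-muscle actin, starts at chr19:34255373 on the minus strand, and the printed bases are chr19:34255374-34255623, inside the region chr19:34255152-34255823. The sequence held 1 TEAD match at -146 and 1 CAGCTG E-box at -182 from the start. Mylk3, cardiac myosin light chain kinase, has its printed bases at chr8:85381042-85381291 on the minus strand and held GATA matches at -100 and -50. Ctla2b, a cysteine protease inhibitor, has them at chr13:60897448-60897697 on the minus strand, with 1 AP-1 match at -143 and 1 SOX match at -173. The noncoding gene 2700070H01Rik, at chr14:63054823-63055072 on the plus strand, held a CAGCTG E-box at -24 and a HAND E-box at -149. Gm32440, at chr19:38134497-38134746 on the minus strand, held 1 TEAD match at -129.

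The 43 windows were searched for 15 motifs on both strands, over all 300 bases, beside 32851 promoter windows of the same length. AGATAA, read by GATA factors, was in 12 of 43 windows (27.9%), against 11.2% of all windows and 5.26% of the 14701 windows in regions called in all 12 libraries. TGANTCA, read by AP-1, was in 10 windows (23.3%), against 7.81% and 4.31%. GGAATG, read by TEAD factors, was in 13 windows (30.2%), against 14.7% and 11.5%. TGACAG, read by MEIS factors, was in 15 windows (34.9%), against 19.2% and 15.9%. The E-box CAGCTG was in 12 windows (27.9% against 16.3% and 15.1%) and the HAND E-box CATCTG in 10 (23.3% against 17.2% and 10.7%). Several motifs were less frequent than in all promoters: TNAAGTG of NKX2-5 was in 3 windows (6.98% against 11.5%), CGGAAGT of ETS factors in 1 (2.33% against 6.42%), GGGTGTG of KLF factors in 1 (2.33% against 7.95%), and ACAATG of SOX factors in 5 (11.6% against 12.6%). The octamer ATGCAAA was in 1 window (2.33% against 4.63%) and TGTTTAC of FOX factors in 3 (6.98% against 3.65%). MEF2 and CArG matches were in 0 of 43 windows, against 3.19% and 1.63% of all, and the CTCF motif was in 1 (2.33% against 0.557%). Median GC content was 53.3% in the 43 windows, 52.7% in all windows and 62.0% in windows of regions called in all 12 libraries, and the median number of CpG dinucleotides was 4, 7 and 21. A match is a description of letters, and windows with several matches or with shared sequence were counted as they stand. Only exact matches to a pattern were counted. A count of 0, or a motif not marked in a printed sequence, thus does not exclude sites that differ by a base. Sequences of the other regions were not used here, so motifs are given for promoters only.

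The regions were a small share of what opened in WT cells and most of what opened in KO cells. In WT differentiation 11278 union regions were called in 3 of 3 CM and 0 of 3 ESC libraries (5.83% of 193427), and the set made up 12.5% of them. In KO differentiation 1833 regions met the same rule (0.948%), and the set made up 76.8% of them. Of 9691 WT-opened regions without a call in ESC KO, 5214 (53.8%) were called in none of the CM KO libraries, 1879 (19.4%) in 1, 1190 (12.3%) in 2 and 1408 (14.5%) in 3. Seen from the KO side, of the regions without a call in ESC WT only 35 (2.29%) were called in none of the CM WT libraries, 27 in 1, 58 in 2 and 1408 (92.1%) in 3. These counts follow from the rule and carry no test.

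**Figure D1:**
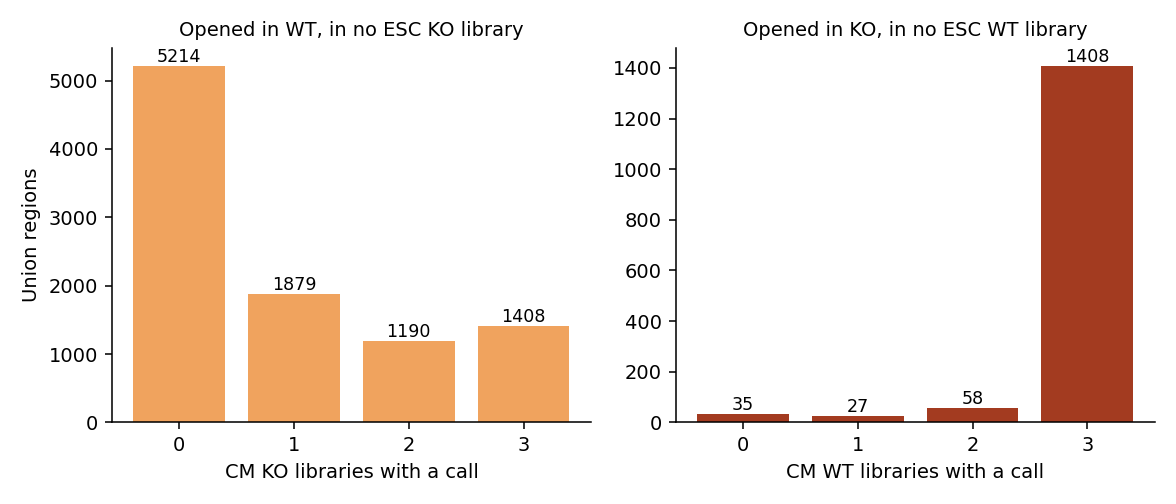
Number of union regions (y axis) opened in one genotype and called in no ESC library of the other, by the number of CM libraries of the other genotype that also called them (x axis). Of the WT-opened regions, 5214 had no CM KO call, and of the KO-opened regions, 1408 were called in all 3 CM WT libraries.

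Just outside the rule lay 1248 regions called in 5 of 6 CM libraries and in no ESC library. The missing call fell on CM KO replicate 1, 2 or 3 in 390, 478 and 322 of them, and on CM WT replicate 1, 2 or 3 in 30, 8 and 20. A further 396 regions were called in all 6 CM libraries and in 1 of 6 ESC libraries. Their ESC call was weak, with a median −log10 q (the strength of a peak as the authors' caller scored it) of 3.29, at percentile 13.8 of its own list. The regions of the set had a median percentile of 57.5 over their 6 CM lists, those missing 1 CM library 47.9, and those with 1 ESC call 56.5.

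The rule was also applied to 11 libraries at a time, and the regions found were looked up in the library left out. These shares restate the counts just given: the CM shares follow from the regions missing 1 CM library and the ESC shares from the 396 regions with 1 ESC call. They are a description with no test, and leaving out a WT library still requires 3 KO calls. The share called was 97.9%, 99.4% and 98.6% in CM WT replicates 1 to 3, and 78.3%, 74.7% and 81.4% in CM KO replicates 1 to 3. The groups did not overlap. The means were 98.6% ± 0.762 and 78.1% ± 3.37 (SD, n = 3), a difference of -20.5 percentage points. For scale, these libraries called 42.0% to 47.0% (CM WT) and 34.4% to 37.4% (CM KO) of all union regions. In left-out ESC libraries the share called was 2.70%, 2.22% and 2.02% in WT and 4.74%, 5.88% and 8.93% in KO. Here too the groups did not overlap, at 2.31% ± 0.347 and 6.51% ± 2.17 (SD, n = 3), with a difference of 4.20 percentage points. Over these 12 libraries the share called was thus at least 74.7% in a left-out CM library and at most 8.93% in a left-out ESC library.

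**Figure D2:**
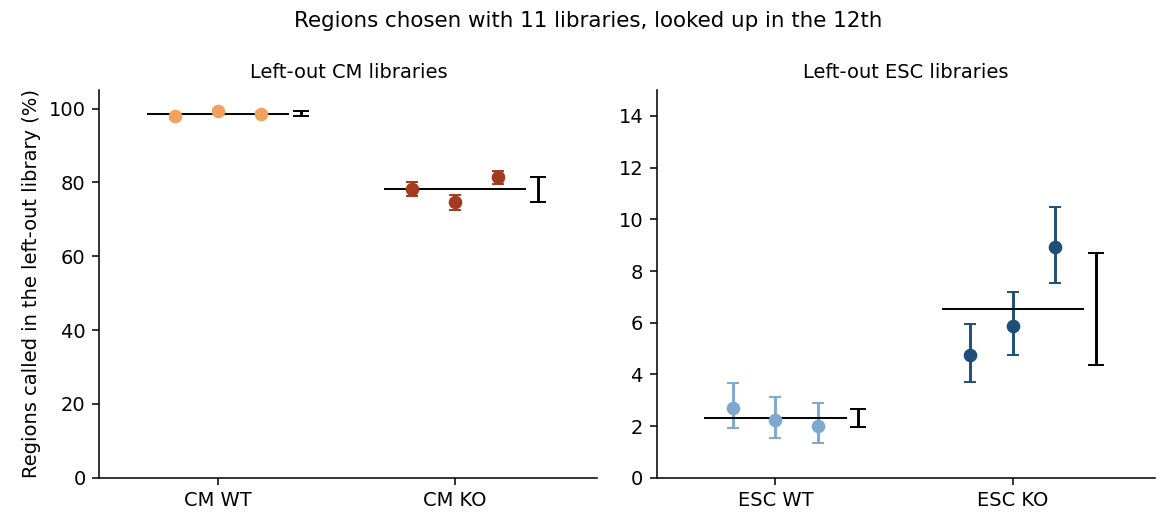
Share of regions, chosen with the other 11 libraries, that were called in the left-out library (y axis, %), for CM libraries on the left and ESC libraries on the right, which have different scales. Points are libraries with 95% exact binomial (Clopper-Pearson) intervals, lines are means and black bars are ± SD over 3 libraries; every CM KO point lies below every CM WT point and every ESC KO point above every ESC WT point.

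Depth moved with these groups. The deposited fold and p-value of a peak together fix the background pileup of its library, in reads per base, which was 2.09, 2.53 and 2.09 in CM WT and 1.58, 1.58 and 1.72 in CM KO. It was 1.64 to 1.78 in ESC WT and 1.78 to 1.92 in ESC KO. As an alternative chosen after seeing the data, called peaks were thinned to a background of 1.58 reads per base. The summit count of each peak, worked out from its fold and p-value, was thinned at random, and peaks below a common p-value cut-off were dropped. Widths stayed as they were and uncalled sites could not enter, so this does not show what peak calling at equal depth would give. By this, 1404 regions met the rule and overlapped 95.6% of the set. The share called in left-out libraries was then 98.0% in CM WT and 79.4% in CM KO, a difference of -18.5 percentage points.

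The called intervals inside the regions were narrower in CM KO. The rule used the presence of a call and not its width, but the widths are those of the same called intervals. The median width of intervals in the set was 383, 421 and 370.5 bp in CM WT replicates 1 to 3 and 256, 247 and 258 bp in CM KO replicates 1 to 3. No KO library reached a WT library: the means were 391.5 ± 26.3 and 253.7 ± 5.86 bp (SD, n = 3), a difference of -137.8 bp (exact two-sided permutation p = 0.1, the smallest that 3 against 3 allows). Over all intervals of each library the medians did not separate, at 286, 291 and 286 bp in WT and 290, 291 and 286 bp in KO (exact permutation p = 1.0). Over the 40870 regions called in all 12 libraries the mean of the medians was 420.7 bp in WT and 401.0 bp in KO (exact permutation p = 0.3). In 879 of the 1408 regions (62.4%) all KO intervals were narrower than all WT intervals, and in 1 region all were wider. Among the regions called in all 12 libraries these shares were 15.7% and 5.99%. Width also follows depth, and its part in this difference was not tested.

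Rank within a list told the strength of the regions among all peaks of a library. Members stood at a median percentile of 73.1, 78.6 and 71.0 of −log10 q in the CM WT lists and 39.4, 35.7 and 41.0 in the CM KO lists. The 5214 regions opened in WT only (3 of 3 CM WT libraries and no other) stood at 39.8, 47.3 and 36.0 in the CM WT lists. Regions called in all 12 libraries stood at 70.7 to 73.1 in CM WT and 67.7 to 70.3 in CM KO. The lists differ in length, so the same number of the strongest intervals, 70132, was also taken from each: members then stood at 67.2, 70.6 and 65.2 in CM WT and 41.8, 35.2 and 40.6 in CM KO. With the called peaks thinned to the same background pileup, as above, the values were 72.0, 75.1 and 68.0 against 39.9, 35.7 and 40.5. The median fold enrichment over local background, a value of the authors' caller, was 6.56, 6.95 and 6.36 in CM WT and 4.86, 4.65 and 4.76 in CM KO.

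**Figure D3:**
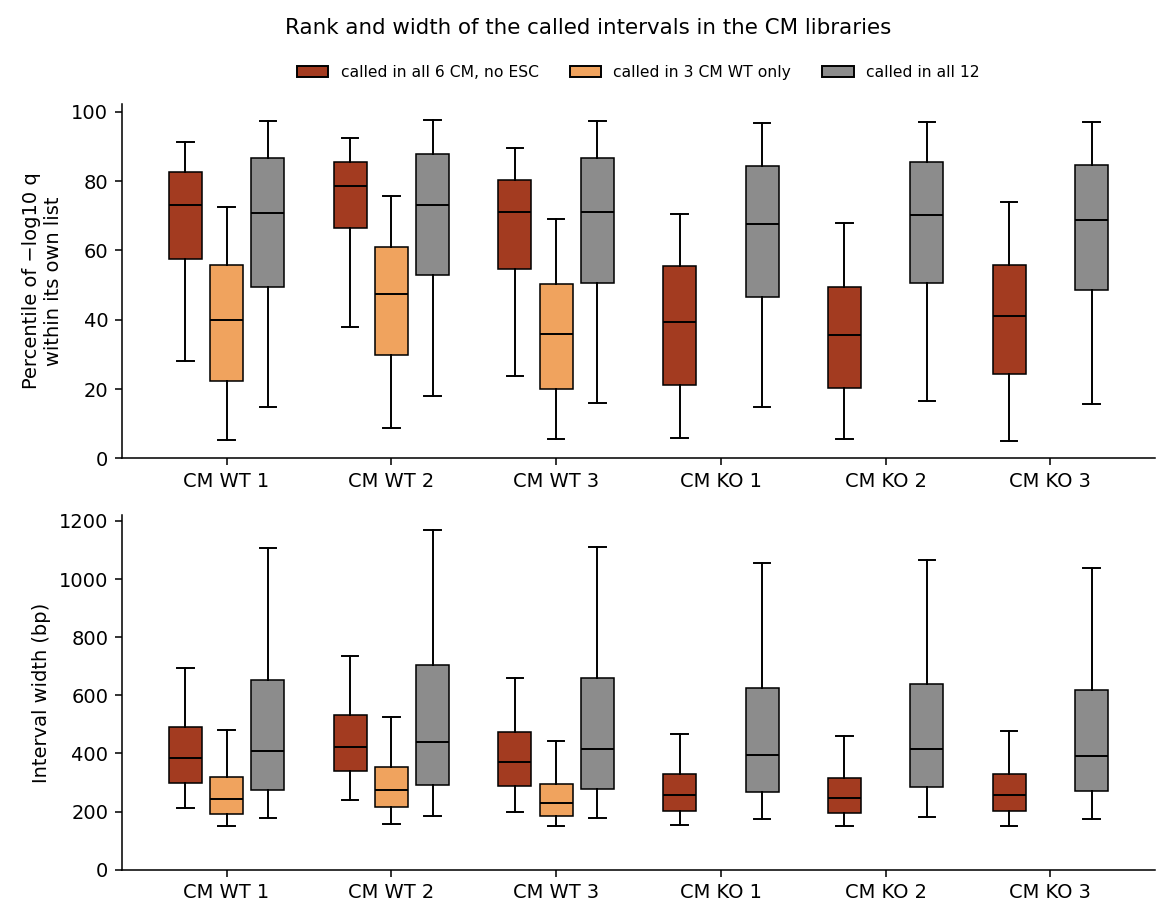
Percentile of −log10 q within its own list (upper axis) and width in bp (lower axis) of called intervals in the 6 CM libraries, for regions of the set, regions called in CM WT only and regions called in all 12 libraries. Boxes span the quartiles with the median, whiskers the 5th to 95th percentiles; boxes of the set stand near those called in all 12 in CM WT and below them in CM KO.

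Peak summits of the genotypes were compared within each region. The median distance between the WT and the KO summit was 20 bp, and 83.4% of the regions had it within 50 bp. In 1322 regions (93.9%) each CM library had exactly 1 interval. The regions were 205 to 1394 bp wide with a median of 477.5 bp.

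Most regions lay away from gene ends. The set had 643 regions (45.7%) in a protein-coding gene, where exon and intron were not told apart, against 55.7% of all union regions, 50.2% of regions opened in WT only and 64.9% of regions called in all 12 libraries. A promoter window was overlapped by 38 of the 1341 regions off chromosome 18 (2.83%), against 7.78% of all union regions. Within 1 kb of either end of a gene lay 35 regions (2.49%), against 11.8% of all regions, 3.34% of those opened in WT only and 33.5% of those called in all 12. The median distance to the nearest tabulated gene start was 24.6 kb, against 20.1 kb for all regions, 24.4 kb for regions opened in WT only and 9.53 kb for regions called in all 12. The largest share, 630 regions or 47.0%, lay 10 to 50 kb from a start. The rule keeps the regions clear of ESC calls. The nearest region with an ESC call was at a median of 4.05 kb, and 14.9% had one within 1 kb, close to the 4.29 kb and 15.3% of regions opened in WT only. With an ESC-free margin of 500 bp, 1305 of the 1408 regions were left, and the strongest, at 0.4 kb from an ESC-called region, was not among them.

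**Figure D4:**
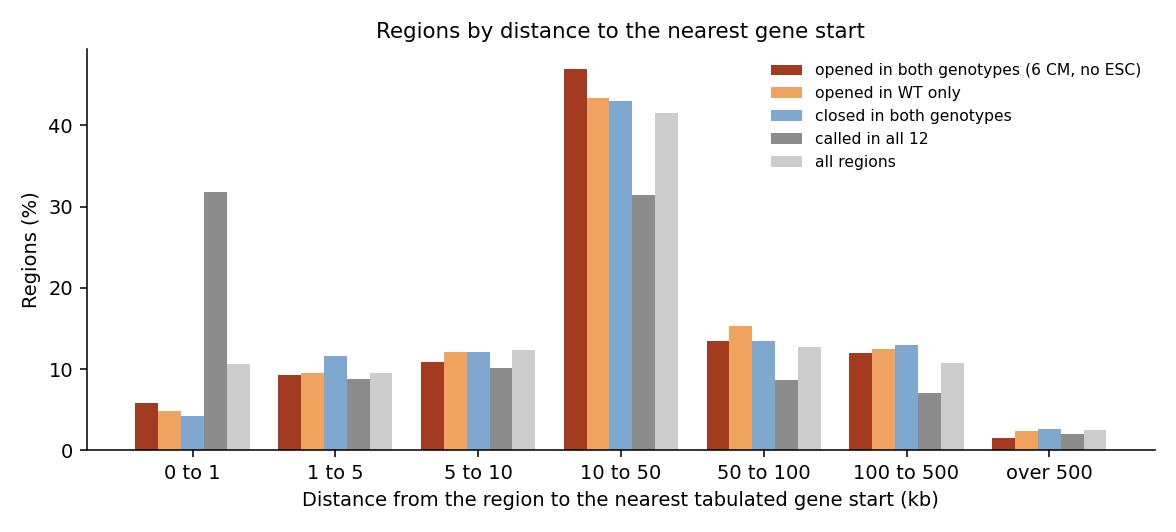
Share of regions (y axis, %) by distance from the region to the nearest tabulated gene start (x axis, kb, bins of unequal width), for 5 sets of regions off chromosome 18. Of the set, 5.82% lay within 1 kb and 47.0% between 10 and 50 kb, while 31.7% of the regions called in all 12 libraries lay within 1 kb.

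A few regions stood in rows along the chromosome. With gaps of up to 20 kb, 147 regions (10.4%) formed 70 chains, and 6 chains had 3 or more. The longest held 4 regions at chr2:27799038-27836566, between Rxra, a retinoid receptor, and Col5a1, a fibrillar collagen. Chains of 3 lay in Bcas3 at chr11:85799713-85818783, at Eng and Fpgs at chr2:32667770-32686205, near Ccnl1 at chr3:65888811-65905090 and in Zfp469 at chr8:122155165-122181802. The chain at chr8:126683987-126687286 had no protein-coding gene within 50 kb.

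The strongest region by median percentile over the 6 CM lists, at chr9:63941605-63942238, lay 10838 bp from Smad6, an inhibitor of BMP signalling. Its fold over background was 13.0, 12.6 and 13.6 in CM WT and 9.98, 11.8 and 11.5 in CM KO, so the WT values were all above the KO values. It reached percentiles of 98.4 to 99.1 in CM WT and 86.6 to 92.5 in CM KO. The second region, 22640 bp from Dapk2 at chr9:66294882-66295350, had folds of 13.5, 13.8 and 12.8 in CM WT and 8.94, 12.3 and 8.35 in CM KO. The fifth lay in App at chr16:85148627-85149109, the seventh in Adam12, a metalloprotease, at chr7:134114298-134115534, and the tenth in Vgll4, a TEAD cofactor, at chr6:114901340-114902323. The Mylk3 promoter region at chr8:85380710-85381397 ranked eighth, with folds of 10.6, 9.99 and 9.11 in CM WT and 7.68, 7.95 and 9.84 in CM KO, which overlapped. The other 4 of the top 10 lay near Odf1 (48983 bp) and Ccdc34 (10739 bp), or had no protein-coding gene within 50 kb. The widest, 1394 bp at chr2:106461275-106462668, had no gene within 50 kb, and the next lay in Frmd4a (1320 bp) and Sh3pxd2a (1310 bp). The weakest, in Cyth1 at chr11:118236615-118237088, had folds of 6.05, 3.76 and 3.09 in CM WT and 3.51, 3.23 and 3.12 in CM KO.

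Each region was given to the protein-coding genes that hold it, or else to the nearest within 50 kb. By this, 643 regions were held by a gene, 448 had a nearest gene and 317 had none, which gave 958 genes with a region, or 4.37% of 21900. Of these, 118 genes had 2 or more. Frmd4a, Mical2, Rxra and Zfp469 had 4 each and Ano1, a chloride channel, had 3. Genes with a region were long, with a median of 68.8 kb against 17.1 kb for all genes. The share with a region was 1.13% among the 5477 shortest genes and 10.9% among the 5475 longest, so counts over gene lists below also reflect gene length.

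Heart and mesoderm transcription factors often had a region: 10 of 25 listed (40.0%, against 4.37% of all genes), among them Gata5, Gata6, Hand1, Hopx, Meis1, Meis2, Myocd, Tbx3 and Tead1. The Gata6 region lies inside the gene at chr18:11077877-11078609, with folds of 9.10, 9.61 and 10.1 in CM WT and 8.64, 8.83 and 10.4 in CM KO. The values overlapped between genotypes. Tbx3 had regions 18514 and 31735 bp away, the nearer at chr5:119651502-119652020 with folds of 9.33, 9.05 and 9.19 in CM WT and 8.07, 8.92 and 8.87 in CM KO. Tead1 had a region 22616 bp away, Hand1 one 32314 bp away and Gata5 one 1822 bp away. Meis2 had regions 187 bp outside its end and inside it, and Meis1 had 1 inside. Myocd, a cofactor of serum response factor in muscle, held 1 region at chr11:65209454-65209874.

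Among 24 sarcomere genes only Tnni1, the slow troponin I of embryonic heart, had a region (4.17%, close to the 4.37% of all genes), inside the gene at chr1:135800223-135801028 with folds of 8.91, 8.04 and 8.75 in CM WT and 8.06, 6.76 and 7.78 in CM KO. Cacna1c and Ryr2, calcium channels of plasma membrane and sarcoplasmic reticulum, had 1 each among 17 listed (11.8%). Of 14 smooth-muscle genes only Acta2 had a region (7.14%), the promoter region shown above, with folds of 10.3, 11.5 and 10.3 in CM WT and 8.83, 10.5 and 6.62 in CM KO.

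Of 37 BMP, TGF-beta and WNT genes 8 had a region (21.6%, against 4.37% of all genes, a share that ranged from 1.13% to 10.9% with gene length): the ligands Bmp4 and Bmp7, the modulator Bmper, the co-receptor Tgfbr3, the signal carriers Smad1, Smad3 and Smad5, and the inhibitor Smad6 with 3 regions. Of 24 YAP, TEAD and adhesion genes 9 had one (37.5%): the factors Tead1 and Tead4, their cofactors Vgll3 and Vgll4, the targets Ccn2 and Amotl2, the cadherins Cdh2 and Cdh11, and the integrin Itga1. Of 22 fibroblast and matrix genes 6 had one (27.3%), the collagens Col1a1, Col1a2 and Col5a1, the collagen receptor Ddr2, the fibrillin Fbn1 and the matrix protein Sparc. Imprinted genes had one in 4 of 16, Igf2r with 3 regions, Grb10 with 2, and Dlk1 and Gnas with 1.

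Of genes of other lineages, to be read against the same 4.37% and its range with length, blood genes had a region in 5 of 17 (29.4%), namely Gata2, Cd34, Csf1r, Ptprc and Runx1, and endothelial genes in 3 of 18 (16.7%), namely Eng, Erg and Ets1. Endoderm genes had one in 3 of 23 (13.0%), among them Dab2 and Gata6. The shares were 2 of 18 (11.1%) for immediate early genes, with Jun and Dusp1, 1 of 25 for cell-cycle genes, with Rrm2, 1 of 32 for pluripotency genes, with Tbx3, 1 of 39 for Hox clusters, with Hoxb1, and 0 of 14 for neural genes.

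The RNA of genes with a region was higher in CM cultures than in stem cells in both genotypes. ChrRNA-seq had 1 library per group, so these differences have no replicate check and no test. Of 896 such genes in the RNA table, the median level was 0.139 and 0.140 RPKM in ESC (WT, KO) and 0.460 and 0.415 in CM (WT, KO). On the log2(RPKM + 1) scale, which understates changes of low genes, the median difference of CM WT from ESC WT was 0.11, against 0.00 for all 15909 genes. At least 2-fold higher in CM WT were 52 of 896 genes (5.80%), against 1.12% of all genes, and at least 2-fold lower were 3 (0.335%), against 1.45%. In KO the median difference was 0.12 against 0.01, with 38 genes at least 2-fold higher (4.24%, against 1.05%) and 1 at least 2-fold lower (0.112%, against 0.471%). Genes with a region opened in WT only and none of the set had 1.99% at least 2-fold higher in WT and 1.68% in KO. Library scaling matters for levels: over genes of at least 1 RPKM on average the median difference of CM WT from ESC WT was -0.26, and centring it moved the median of genes with a region to 0.19 and their share at least 2-fold higher to 8.37%, against 1.92% of all genes.

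**Figure D5:**
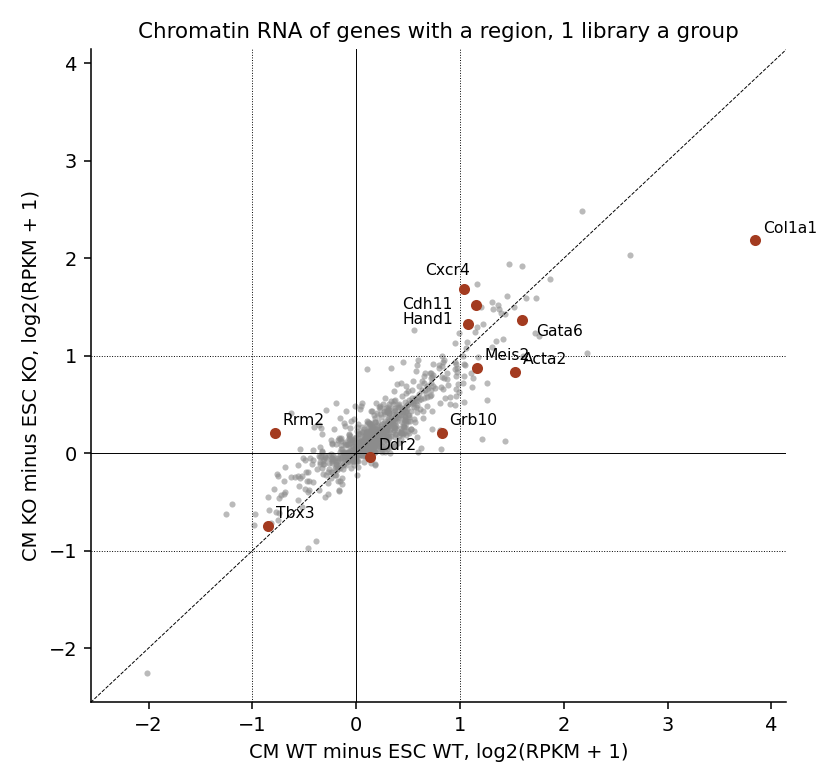
Difference in chromatin RNA between CM and ESC on the log2(RPKM + 1) scale, WT on the x axis and KO on the y axis, for 896 genes with a region, 1 library per group. Dotted lines mark 2-fold and the dashed line equal differences; most named genes lie to the upper right, Col1a1 lies below the dashed line, and Tbx3 lies at the lower left.

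Among the transcription factors, Gata6 stood at 0.0194 and 0.0226 RPKM in ESC (WT, KO) and at 2.09 and 1.64 in CM (WT, KO). Hand1 stood at 0.00869, 0.0433, 1.13 and 1.62 RPKM in this order, which is kept below, and was thus higher in CM KO than in CM WT. Both were low in both ESC libraries and high in both CM libraries. Meis2 (0.110, 0.155, 1.48 and 1.12 RPKM) and Meis1 (0.117, 0.0504, 1.31 and 0.961 RPKM) followed the same order of cell types. Myocd reached 0.429 RPKM in CM WT and 0.157 in CM KO from at most 0.00381 in ESC. Tbx3, which is also active in pluripotent cells, went the other way, at 2.62 and 3.64 RPKM in ESC WT and ESC KO and 1.01 and 1.78 in CM WT and CM KO. Tead1 was high throughout, at 2.68, 3.44, 2.69 and 3.20 RPKM.

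Several matrix and contractile genes were lower in CM KO than in CM WT. Col1a1, the main chain of collagen I, stood at 0.149, 0.174, 15.5 and 4.34 RPKM. Col1a2, its partner chain, stood at 0.0243, 0.0485, 3.77 and 1.14 RPKM. Acta2 stood at 0.218, 0.122, 2.53 and 1.00 RPKM. In these genes CM KO was between ESC and CM WT. Sparc was closer between genotypes, at 1.18, 1.59, 5.62 and 4.17 RPKM, and Fbn1 did not separate them, at 0.462 RPKM in CM WT and 0.463 in CM KO.

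Of the 17 adhesion and signalling genes with a region, ratios of CM KO to CM WT ran from 0.489 (Ccn2) to 1.53 (Cdh11). Cdh2, N-cadherin, stood at 0.136, 0.167, 2.06 and 2.15 RPKM. Cdh11, a mesenchymal cadherin, stood at 0.0120, 0.0161, 1.26 and 1.92 RPKM. Smad6 stood at 0.297, 0.268, 2.02 and 2.17 RPKM, next to the strongest region of the set. Smad3 stood at 0.276, 0.318, 1.35 and 1.13 RPKM, and Tgfbr3 at 0.0264, 0.0233, 0.832 and 0.616. Jun, a subunit of AP-1 from the immediate early list and not among the 17, stood at 0.482, 0.212, 3.06 and 2.70 RPKM. All 6 were above ESC in both genotypes, which did not hold for all of the 17. On the log2(RPKM + 1) scale Tead4 differed from ESC by -0.16 in WT and -0.11 in KO, and Tead1 by 0.004 and -0.083. Ccn2, a matricellular target of YAP and TEAD, stood at 3.90, 3.08, 6.39 and 3.12 RPKM, so its KO levels in ESC and CM were close together.

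Outside the lists, the largest positive differences included genes higher in CM of both genotypes. Car4, a carbonic anhydrase, had 2 regions and stood at 0.294, 0.224, 4.84 and 5.84 RPKM, a difference of 2.17 in WT and 2.48 in KO on the log2(RPKM + 1) scale. Hmga2, a chromatin protein of embryonic cells, stood at 0.136, 0.210, 3.14 and 3.19 RPKM, and Zfp608 at 0.114, 0.102, 2.71 and 2.32. Has2, a hyaluronan synthase of the heart cushions, stood at 0.0185, 0.0468, 2.09 and 2.97 RPKM, and the netrin receptor Unc5c at 0.00764, 0.0154, 1.26 and 2.38. Cxcr4, a chemokine receptor of migrating mesoderm and endoderm, stood at 0.0786, 0.130, 1.22 and 2.64. Other genes with a region had less RNA in CM: Cobl, an actin nucleator, stood at 3.89, 4.71, 0.210 and 0.194 RPKM, and the signalling ligand Nodal stood at 2.71, 2.01, 0.877 and 0.814 RPKM.

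Between the CM genotypes the median difference of genes with a region, CM KO from CM WT, was -0.01 on the log2(RPKM + 1) scale, against 0.00 for all genes. At the low levels of these genes the pseudocount of 1 RPKM holds such differences near 0. By sign alone 42.0% were higher in CM KO, against 52.8% of all genes. Of genes with a region opened in WT only and none of the set, 39.9% were higher in CM KO and 0.397% at least 2-fold lower. At least 2-fold lower in CM KO were 4 of 896 genes (0.446%, against 0.163% of all genes), and 0 were at least 2-fold higher (against 0.0503%). With a pseudocount of 0.1 RPKM the number at least 2-fold lower was 24 (2.68%, against 1.502% of all genes). Mical2, Dab2, Cacna1c and Lpl had ratios of CM KO to CM WT of 0.252, 0.339, 0.289 and 0.175. Between the ESC genotypes 0 genes were at least 2-fold higher in KO (against 0.0251% of all genes) and 1 was at least 2-fold lower (0.112%, against 0.0314%). The CM comparison shares the CM WT library with that of WT differentiation. The 4 genes lower in CM KO were Col1a1, Col1a2, Grb10 and C3ar1. Grb10, an imprinted adaptor of insulin signalling, stood at 3.55 RPKM in ESC WT and 7.05 in CM WT, and at 0.194 in ESC KO and 0.380 in CM KO, so it was low in the KO of both cell types. C3ar1, a complement receptor of myeloid cells, stood at 1.73 RPKM in CM WT and 0.0891 in CM KO, and its ESC levels were at most 0.00792. Csf1r, the receptor of macrophage growth factor, stood at 0.537 and 0.0340 RPKM, and the leukocyte gene Ptprc at 0.131 and 0.00802 in CM WT and CM KO. The summed level of 16 blood genes was 44.5 RPKM in CM WT and 49.2 in CM KO, with 7 of 16 lower in CM KO, and its part in these values was not tested. Among the imprinted genes Igf2r stood at 0.709, 0.635, 4.64 and 2.85 RPKM and Dlk1 at 0.102, 0.0474, 5.84 and 3.28.

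Igf2r, Gnas, Gata5, Gata6, Hand1, Meis1, Meis2, Myocd, Tbx3, Has2, Hmga2, Cobl and Grb10 share their span with other annotated genes. The strand used in counting is not given, so their reads and those of the overlapping genes cannot be told apart. The region in Cacna1c was also held by Dcp1b. Nearest-gene assignment also does not show which gene a region acts on.

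The m6A lists give positions on chromatin RNA, 1 list per group, and METTL3 is the enzyme that writes the mark. Of the 896 genes with a region, 29.9% had at least 1 listed position in ESC WT, against 31.6% of all genes, and 27.9% in ESC KO, against 31.5%. In CM WT 57.5% had one, against 45.1% of all genes, and in CM KO 38.7%, against 29.5%. The share was thus higher in CM than in ESC in both genotypes for genes with a region, and lower in CM KO than in CM WT as it was for all genes. In CM the KO list was also shorter, with 13962 positions against 25617 in WT. In ESC it was longer, with 18076 against 16983, and on genes with a region it held 978 against 913. Zfp608 had 18 listed positions in CM WT and 13 in CM KO, Dab2 had 12 and 0, and Unc5c had 10 and 10, each with 0 in both ESC lists. The level of RNA also decides whether a position can be listed, and its part in these shares was not tested.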

How the data were processed

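ATAC-seq was deposited as 1 peak list per library (12 libraries, 3 per group), so peaks were called per library. Per the submitters' processing notes, the tools were Bowtie, cutadapt, HISAT2, MACS2 and Picard, with build mm10; versions, roles and settings are not stated there. The authors' columns hold a score, a fold over local background at the summit (a ratio), and −log10 of the summit's p-value and q-value. The deposited RNA files hold RPKM per gene, and the m6A files positions per gene. Any shift of reads for the transposase, and the strand and annotation used for RNA, are given in none of these sources. No peak list gives a read total. Libraries had 70132 to 119307 intervals, and the RNA libraries an estimated 27900000 to 29800000 reads, from the steps between low RPKM values, where 61.6% to 64.9% of low genes came out whole within 0.05.

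Several summits of an interval counted as 1 interval. Regions, members, shares and widths were computed with Python 3.11.15, pandas 2.3.3, numpy 2.4.6 and SciPy 1.17.1, after a check on simulated peak lists, where all planted members were recovered. Genes were the 21900 protein-coding genes of RefSeq (GRCm38.p6), whose table gives no strand. An RNA gene missing from a file was taken as 0. Intervals on shares cover counting error only. With 3 libraries against 3 the exact permutation test cannot go below 0.1, and the sign-flip test over 3 pairs cannot go below 0.25. These tests are given for interval width only: the planned test of calls in left-out libraries rests on calls the rule used, so its shares are described without a p. Width was measured on those same called intervals, so its p is no support apart from the rule. No list, set or gene test was run. The members and the gene and motif lists were chosen with earlier results of these data known. Named regions were the 10 strongest by median percentile in the CM lists, those at an end or promoter of a listed gene, the 3 widest and the weakest. Named genes were listed genes with a region, the 5 with most regions and those with the highest and lowest RNA differences; from these the text gives a part. Dab2, Zfp608 and Unc5c for m6A, and Csf1r and Ptprc beside C3ar1, were picked out after their values were seen. Alternatives covered stricter thresholds, other merging, equal list lengths, each library left out, and other RNA settings. Some genes are not reported here.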

Additional observations from a re-analysis of the deposited data

Results flagged for a closer look

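Among the genes named by the list rule, 2 were flagged as moving in opposite directions in WT and KO differentiation, each with 1 library per group, and the difference was not tested. Opposite directions with RPKM ratios nearer to no change, as in Tead1, were not flagged. Ddr2, a collagen receptor with a region inside the gene, had a ratio of RPKM of CM WT to ESC WT of 7.36 and of CM KO to ESC KO of 0.436, at 0.0157 and 0.0566 RPKM in ESC (WT, KO) and 0.116 and 0.0247 in CM (WT, KO). It overlaps 3110045C21Rik, and its levels are low in all 4 libraries. Rrm2, a subunit of ribonucleotide reductase with a region 44227 bp away, had ratios of 0.490 and 1.19, at 4.62, 3.68, 2.26 and 4.40 RPKM in the same order. Summed over 25 cell-cycle genes, the level was 86.7, 83.0, 46.5 and 64.6 RPKM, and 3 of 25 were higher in CM KO than in ESC KO.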

How the results depend on the processing

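The number of regions, 1408, was 714 at a −log10 q of at least 5 in every library and 2266 when each library gave the same number of intervals, and stayed between 1305 and 1468 otherwise or between 1416 and 1886 without 1 library. The stricter threshold also drops ESC calls, and its 714 regions overlapped only 449 of the 1408 (31.9%). With equal numbers of intervals 84.7% of the set was overlapped. Regions in a gene were 48.5% with equal numbers of intervals; regions at a gene end were 3.50% at −log10 q of at least 5, 4.68% with equal numbers and 11.1% within 5 kb. Of genes with a region, 29.9% (CM WT) and 27.9% (CM KO) were at least 2-fold above ESC, and 2.68% at least 2-fold lower in CM KO than in CM WT, with a pseudocount of 0.1 RPKM (all genes 11.7%, 10.2% and 1.502%); the first 2 shares were 13.4% and 10.6% over genes with a mean of at least 0.5 RPKM (all genes 2.27% for each). The KO share was 2.97% for genes that hold the region (all genes 1.05%), and the WT share 8.37% after scaling (1.92%). Both stayed above the share of all genes in every setting run. The left-out difference in CM was -14.4 percentage points with equal numbers, and -33.1, -33.8 and -34.7 without CM KO replicate 1, 2 or 3, where 1 KO library is left to choose the regions. Without 1 CM library it ran from -34.7 to -19.9, and the width difference from -146.3 to -122.0 bp. With the replicate number as a block (sign-flip over 3 pairs) the p was 0.25 for width (-137.8 bp), the smallest possible; the left-out differences (-20.5 in CM, 4.20 in ESC) restate the rule's calls, so no p is given. Deviations of calls in same-numbered libraries had correlations of -0.00961 to 0.00585. The highest correlation with another number ran from -0.00114 to 0.0127. Between ESC WT and ESC KO the same number was the higher in each replicate, and between CM WT and CM KO it was the lower in replicates 2 and 3. All were near 0, so pairing by number could not be read from the calls. This check sees calls only and cannot exclude a preparation shared by number. Peak lists hold only called intervals, so a missing call is not absence of open chromatin.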

Other observations

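By chromosome, the share of union regions that belonged to the set was highest on chromosome 18 (67 of 6484, 1.03%) and chromosome 8 (102 of 10535, 0.968%) and, of the autosomes and X, lowest on X (19 of 4042, 0.470%) and chromosome 4 (64 of 12828, 0.499%), against 0.728% over all. Of 958 genes with a region, 448 also had a region opened in WT only, and 2994 genes had one of the latter kind. Mical2, an actin-oxidising enzyme with 4 regions, stood at 0.0119 and 0.0116 RPKM in ESC (WT, KO) and 0.522 and 0.132 in CM (WT, KO). Lpl, lipoprotein lipase, with 1 region, stood at 0.0782, 0.139, 1.49 and 0.261 RPKM in the same order.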
